A study of Mus musculus with 42 samples.

Results

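The genes described here are the mouse chemokines, the interleukins and the receptors of both, taken as every gene on the array whose symbol starts with Ccl, Ccr, Cxcl, Cxcr, Cx3cl, Cx3cr or Il followed by a digit. The array held 191 probe sets for 121 such genes, out of 18193 genes with a probe set of their own, and each gene was read from the probe set with the highest mean over all 42 arrays. Of the 121 genes, 18 were CC chemokines, 14 were CXC or CX3C chemokines, 16 were chemokine receptors, 34 were interleukins, 36 were interleukin receptors or accessory chains, and 3 were related genes. The study set *Fmr1*KO mice, which lack a working copy of the fragile X gene, against wild-type (WT) mice of the C57BL/6 strain. Embryos were taken at 17 to 18 days post-conception, littermates were pooled, and part of each hippocampus and cortex was kept as tissue while the rest was grown as primary neuronal culture for 14 days in vitro. There were 5 KO and 5 WT arrays in hippocampal culture, in cortical culture and in primary cortex, and 6 KO and 6 WT arrays in primary hippocampus. No group received a further treatment, and by the study's methods the cultures held glia beside neurons. A culture therefore differs from its tissue in age, cell composition and growth conditions at the same time, and these cannot be told apart.

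Chemokines are small secreted proteins that guide moving cells, and they act on receptors that span the membrane and couple to G proteins. The class of a chemokine is given by the spacing of its first cysteines (CC, CXC, CX3C). In the embryonic forebrain the best known pairs are Cxcl12 with Cxcr4, which guides Cajal-Retzius cells and interneurons, and Cx3cl1 (fractalkine) with Cx3cr1, which links neurons to microglia. Interleukins signal through receptors that share chains, such as Il6st (gp130) for the interleukin 6 family and Il1rap for the interleukin 1 family. Many of these genes are best known from immune cells and are scarce in a brain without inflammation.

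The 42 arrays had medians between 5.40 and 5.56 on the log2 scale of the deposited values. Fmr1, the knocked-out gene, was lower in every KO group by its brightest probe set, at a mean log2 value of 8.01 against 8.96 in hippocampal culture, 8.07 against 8.97 in cortical culture, 9.001 against 9.93 in primary hippocampus and 8.93 against 9.92 in primary cortex (KO against WT; differences from -0.99 to -0.90, largest adjusted p = 2.6e-06, limma), as the genotype labels require. Its other probe sets also read lower in every KO group, by -0.80 to -0.15, but passed adjustment in none (smallest adjusted p = 0.125, limma). Each array carries a mouse number in its label, and arrays with the same number were read as 1 pool of littermates, so that 10 such litters gave all 4 kinds of sample and KO 4237 and WT 3104 gave primary hippocampus only.

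The start regions of both ligand and receptor pairs are shown because Cx3cl1, Cxcr4 and Cxcl12 carry the largest differences between culture and tissue among the members, and Cx3cr1 is the receptor of the first. Each sequence is the 250 bases before the gene start in RefSeq (GRCm38.p6), written 5' to 3' on the gene's own strand: chr8:94771930-94772179 (plus strand) for Cx3cl1, chr9:120068297-120068546 (minus) for Cx3cr1, chr6:117168285-117168534 (plus) for Cxcl12 and chr1:128592300-128592549 (minus) for Cxcr4. Capitals mark matches, on either strand, to 3 promoter motifs. The letters TATAAA were searched for the first of them. The motif bound by Sp proteins was searched as GGGCGG. The motif bound by the factor NF-Y was searched as CCAAT.
Cx3cl1: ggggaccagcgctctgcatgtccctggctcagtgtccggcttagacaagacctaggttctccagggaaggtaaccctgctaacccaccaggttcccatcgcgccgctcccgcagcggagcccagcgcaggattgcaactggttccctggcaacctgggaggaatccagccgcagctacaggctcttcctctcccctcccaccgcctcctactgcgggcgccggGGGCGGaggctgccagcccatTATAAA
Cx3cr1: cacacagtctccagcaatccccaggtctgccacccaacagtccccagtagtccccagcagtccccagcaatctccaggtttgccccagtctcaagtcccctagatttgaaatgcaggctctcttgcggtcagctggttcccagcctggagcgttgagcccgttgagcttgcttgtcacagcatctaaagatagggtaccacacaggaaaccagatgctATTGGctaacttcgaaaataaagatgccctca
Cxcl12: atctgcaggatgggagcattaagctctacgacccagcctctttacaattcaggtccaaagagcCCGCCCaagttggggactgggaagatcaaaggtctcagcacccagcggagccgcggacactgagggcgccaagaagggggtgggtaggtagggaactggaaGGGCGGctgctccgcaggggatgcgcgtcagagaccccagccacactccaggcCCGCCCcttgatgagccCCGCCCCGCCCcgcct
Cxcr4: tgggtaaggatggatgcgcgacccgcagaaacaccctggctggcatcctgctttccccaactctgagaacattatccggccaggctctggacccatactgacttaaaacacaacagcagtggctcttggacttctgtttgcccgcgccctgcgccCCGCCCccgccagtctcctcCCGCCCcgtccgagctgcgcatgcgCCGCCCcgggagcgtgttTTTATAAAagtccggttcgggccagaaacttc
TATAAA was found 1 time before Cx3cl1 and 2 times, overlapping, before Cxcr4, and it was present in 12.4% of the 32851 windows of this length. GGGCGG was found 5 times before Cxcl12, 3 times before Cxcr4 and 1 time before Cx3cl1, against 32.7% of windows with at least 1 match. The window of Cx3cr1 held 1 CCAAT, as did 33.8% of windows, and no TATAAA or GGGCGG. The share of G and C was 64.8% for Cx3cl1, 64.4% for Cxcl12, 61.2% for Cxcr4 and 53.6% for Cx3cr1. A match is a description of the letters and not evidence of a bound site.

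Most members were not above the level that probe sets of silent genes reach. That level was set at the 95th percentile of 44 olfactory receptor probe sets, 4.71 on the log2 scale (their median was 3.92), since olfactory receptors are not expected to be transcribed in forebrain. By the mean of all arrays 46 of 121 members (38%) exceeded it, against 71.3% of all genes. By the mean of at least 1 of the 4 kinds of sample 50 members did, against 74.4% of all genes (13530 of 18193), and 38 members did so in all 4. The other 71 members had means between 2.91 and 4.69 in every kind of sample. A value under the level does not show that a gene was silent, and the level compares each probe set only with the olfactory probe sets and not with other members. Nor does a value above it show transcription, since the highest olfactory probe set was at 5.17. By the mean of all arrays 32 members exceeded that value. Il17a and Il1f5, for instance, were below it in the mean of every kind of sample.

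Of the CC chemokines 10 of 18 were above the level: Ccl2, which draws monocytes, Ccl4, Ccl5, Ccl9, Ccl17, Ccl20, Ccl24, Ccl25, Ccl27a and Ccl28. Of the CXC and CX3C chemokines 9 of 14 were: Cxcl1, Cxcl10, Cxcl11, Cxcl12, Cxcl13, Cxcl14, Cxcl16, Cxcl17 and Cx3cl1. Of the 16 chemokine receptors 5 were: Ccr2, the receptor of Ccl2, Ccr6, the receptor of Ccl20, Ccr10, a receptor of Ccl27a and Ccl28, Cxcr4 and Cx3cr1. The interleukins were represented by 10 of 34, namely Il1b, Il1f5, Il1f10, Il16, Il17a, Il17b, Il17d, Il18, Il20 and Il34, the last of these a ligand of the microglial receptor Csf1r. The receptor chains were represented by 15 of 36, namely Il1r1, Il1rap, Il1rapl1, Il2rb, Il3ra, Il6ra, Il6st, Il10rb, Il15ra, Il17ra, Il17rb, Il17rc, Il17rd, Il17re and Il18rap. Il18bp, which binds and blocks interleukin 18, was the only 1 of the 3 related genes above the level. Among the members under the level throughout were the cytokines Il1a, Il4, Il6 and Il10, the chemokines Ccl3, Ccl7, Ccl12, Cxcl2 and Cxcl9, and the receptors Ccr1, Ccr7, Cxcr2 and Cxcr3.

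**Figure D1:**
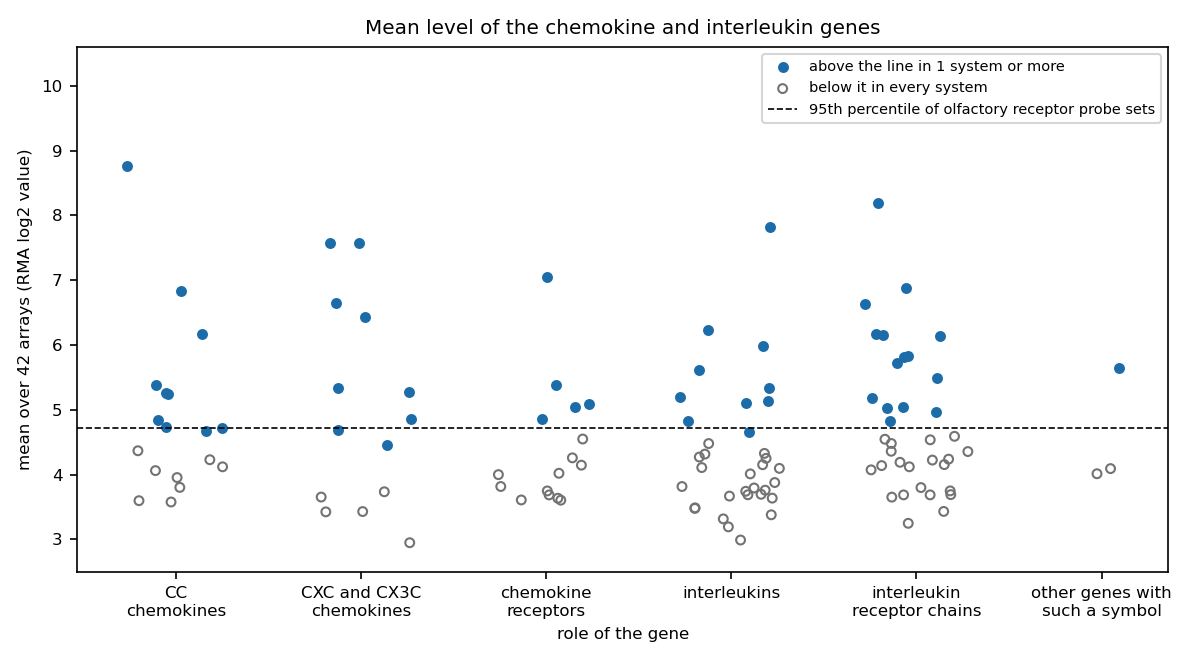
Mean log2 expression of each member over the 42 arrays (y axis), with the members grouped by role along the x axis. Filled points are the 50 members above the olfactory receptor level of 4.71 (dashed line) in at least 1 kind of sample, open points the 71 below it throughout, and a few filled points lie just under the line because only 1 or 2 kinds of sample exceeded it.

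Several members crossed the level between kinds of sample. Cx3cr1 had a mean of 6.39 in primary hippocampus and 5.63 in primary cortex, and was under the level in both cultures (4.67 and 4.64). Cxcl14 and Cxcl10 did the opposite in at least 1 culture: the mean of Cxcl14 was 6.25 in hippocampal and 5.95 in cortical culture against 4.46 and 4.63 in the tissues, and Cxcl10 exceeded the level only in cortical culture, at 4.85. Ccl9 was above it in tissue alone, at 4.98 in primary hippocampus and 4.73 in primary cortex. Ccl17, Ccl5, Cxcl11, Cxcl13, Il2rb and Il34 stood within 0.5 log2 units of the level in every kind of sample, some above it and some below.

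The comparison of each culture with the tissue of the same region gave the largest differences among the members. Cx3cl1, the chemokine that neurons carry on their membrane, was 15.5-fold higher in hippocampal culture than in primary hippocampus and 16.8-fold higher in cortical culture than in primary cortex. Its receptor Cx3cr1 was lower in both cultures, and so was Cxcr4, 8.73-fold in the hippocampus and 3.55-fold in the cortex. Cxcl12, the ligand of Cxcr4, was 7.21-fold lower in cortical culture and 1.34-fold lower in hippocampal culture. These folds are those of the brightest probe sets. The other probe sets of Cx3cl1 gave much smaller differences, as did those of Cxcl12 in the cortex. The receptor chains Il6st, Il6ra and Il1r1 were higher in both cultures.

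Over all 121 members, 42 were higher (34.7%) and 15 lower (12.4%) in hippocampal culture at an adjusted p under 0.05 (limma, Benjamini-Hochberg over 45037 probe sets), against 35.9% of all genes higher and 36.2% lower. In cortical culture 44 were higher (36.4%) and 14 lower (11.6%), against 35.3% and 35.9% of all genes, and this split turned to 27 higher and 36 lower with each array centred on its median and to 32 and 25 after a further quantile normalization. Of the 50 members above the olfactory receptor level, 24 were higher (48%) and 10 lower (20%) in hippocampal culture, where 37.3% and 44.5% of all genes above the level were. In cortical culture 24 were higher (48%) and 7 lower (14%), where 37.6% and 43.4% were. The 50 were kept for being above the level in at least 1 kind of sample, which for Ccl5, Ccl17, Cxcl10, Cxcl11, Cxcl14 and Il34 was culture alone and for Ccl9 and Cx3cr1 tissue alone, so these members had to differ and the counts over the 50 carry no weight for a direction. The median difference of these 50 was 0.15 in the hippocampus and 0.13 in the cortex, against -0.05 and -0.04 for all genes above the level. The split depended on the scaling in cortical culture, where 20 were higher and 14 lower after each array was centred on its median or quantile normalized again. In hippocampal culture the centred arrays gave 21 higher and 11 lower. Centring moved the median of all genes by -0.04 in the hippocampus and -0.09 in the cortex.

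Across the regions 20 of the 50 members were higher in both cultures and 6 were lower in both, where 30.2% and 37.4% of all genes above the level were. A further 8 were called in the hippocampus only, 5 in the cortex only and 11 in neither, no member was called in opposite directions, and 92.1% of all genes above the level were called in at least 1 region. The 11 were Ccl20, Ccr6, Ccr10, Cxcl17, Il1f5, Il3ra, Il17a, Il17b, Il17ra, Il18rap and Il20. All arrays of culture lay outside the range of the tissue arrays for 14 of the 50 in the hippocampus and 13 in the cortex, against 49.1% and 48.8% of all genes above the level. The members with a called difference of at least 2-fold numbered 6 of 50 in each region, against 26% and 24.3%.

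**Figure D2:**
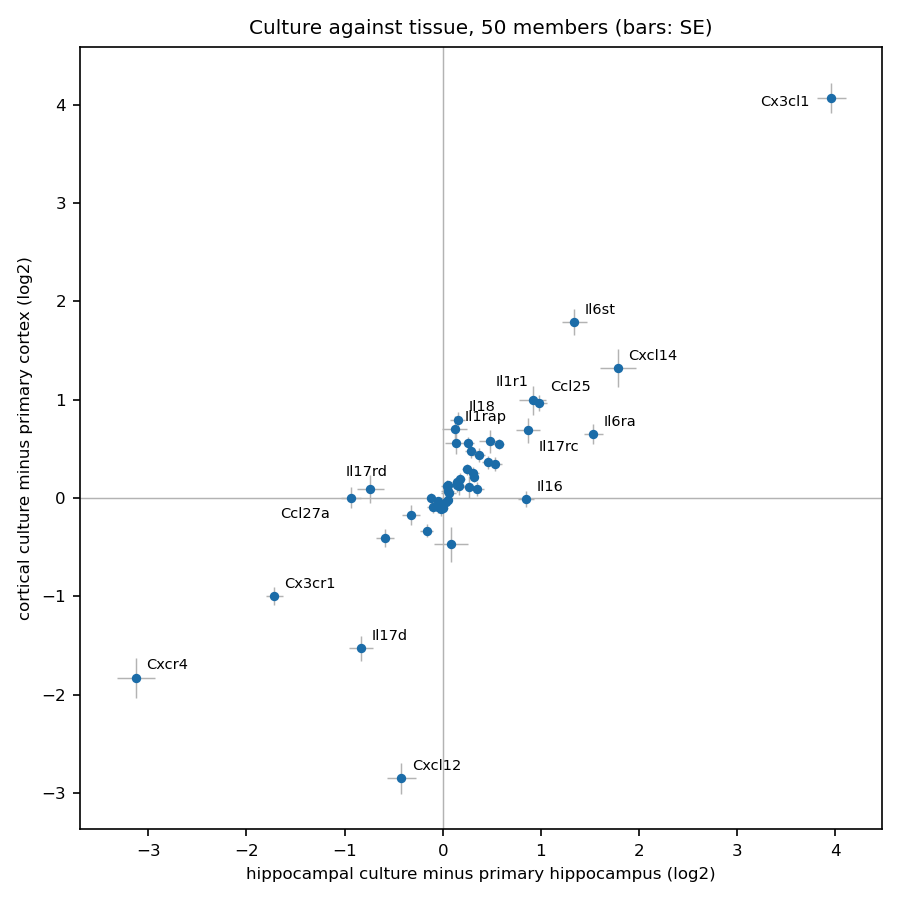
Difference in log2 expression between culture and tissue for the 50 members above the olfactory receptor level, with hippocampal culture minus primary hippocampus on the x axis and cortical culture minus primary cortex on the y axis. Bars are standard errors from limma, and Cx3cl1 stands at the upper right (3.96 and 4.07), while Cxcr4 (-3.13 and -1.83) and Cxcl12 (-0.42 and -2.85) stand below 0 in both.

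Among the CX3C and CXC ligands, Cx3cl1 (chr8:94772180-94782427) ran from 9.04 to 10.51 (median 9.64) in hippocampal culture and from 8.83 to 10.43 (median 9.82) in cortical culture, 10 arrays each. Primary hippocampus gave 5.22 to 6.00 (median 5.72) over 12 arrays, and primary cortex gave 5.44 to 5.91 (median 5.70) over 10. Every culture array was above every tissue array. The differences in log2 expression were 3.96 ± 0.15 (SE, adjusted p = 3.72e-24) in the hippocampus and 4.07 ± 0.15 (SE, adjusted p = 9.08e-24) in the cortex. In KO against WT the group means (± SD) were 9.54 ± 0.25 against 9.71 ± 0.55 in hippocampal culture, 9.58 ± 0.50 against 9.90 ± 0.53 in cortical culture, 5.67 ± 0.28 against 5.67 ± 0.21 in primary hippocampus and 5.67 ± 0.11 against 5.67 ± 0.19 in primary cortex. Its 3 other probe sets also read higher in culture, by 0.53 to 1.13 in the hippocampus and by 0.50 to 1.21 in the cortex, so the size of the difference rests on the probe set. Of 10 neuronal markers 8 were higher and 2 lower in culture in the hippocampus, and 7 and 2 in the cortex. Of all genes 35.9% and 35.3% were higher there. The neuronal list means per array were 10.07 to 10.93 and 10.33 to 10.81 in the cultures and 9.37 to 9.98 in the tissues. The part of these neurons in the difference was not tested, and in bulk RNA a larger number of cells of a type and more RNA per cell cannot be told apart.

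Cxcl12 (chr6:117168535-117181368) ran from 6.97 to 8.24 (median 7.77) in hippocampal culture against 7.62 to 9.29 (median 7.93) in primary hippocampus, and the arrays overlapped. In the cortex the culture arrays, 5.41 to 6.03 (median 5.65), were all below the tissue arrays, 8.37 to 8.65 (median 8.56). Culture minus tissue was -0.42 ± 0.15 (SE, adjusted p = 0.013) in the hippocampus and -2.85 ± 0.16 (SE, adjusted p = 7.34e-19) in the cortex. The hippocampal call was lost when only the arrays of these systems were fitted. KO and WT means (± SD) were 7.87 ± 0.21 against 7.67 ± 0.52 in hippocampal culture, 5.66 ± 0.21 against 5.71 ± 0.23 in cortical culture, 8.15 ± 0.38 against 8.23 ± 0.65 in primary hippocampus and 8.50 ± 0.08 against 8.57 ± 0.09 in primary cortex. Of its other 2 probe sets, 1 fell by 0.90 and 1.05 in hippocampal and cortical culture and the third, under the olfactory level, differed by 0.09 and -0.03.

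Cxcl14 (chr13:56288643-56296811), a chemokine of epithelia and of some interneurons, ran from 5.43 to 6.68 (median 6.30) in hippocampal culture and from 5.21 to 6.44 (median 6.02) in cortical culture. In primary hippocampus it ran from 3.82 to 5.29 (median 4.47) and in primary cortex from 3.92 to 5.36 (median 4.59), where the group means were under the olfactory level. The hippocampal groups did not overlap and the cortical groups did. The fitted differences were 1.79 ± 0.18 (SE, adjusted p = 3.72e-11) and 1.32 ± 0.19 (SE, adjusted p = 1.19e-07). Against the olfactory level itself Cxcl14 was at least 2.89-fold higher in hippocampal and at least 2.36-fold higher in cortical culture. KO against WT means (± SD) were 6.40 ± 0.22 against 6.10 ± 0.47 in hippocampal culture, 6.06 ± 0.38 against 5.84 ± 0.51 in cortical culture, 4.45 ± 0.24 against 4.47 ± 0.55 in primary hippocampus and 4.59 ± 0.62 against 4.67 ± 0.43 in primary cortex. The remaining ligands of these classes that were called higher in both cultures, Cxcl1, Cxcl10, Cxcl11, Cxcl13 and Cxcl16, differed by 0.14 to 0.48 in the hippocampus and by 0.16 to 0.58 in the cortex. Of these, Cxcl10 and Cxcl11 in both tissues and Cxcl13 in primary hippocampus had means under the olfactory level, as did Cxcl10 in hippocampal culture, so their fitted values are no bounds and no fold is given. Cxcl1 draws neutrophils, Cxcl10 and Cxcl11 are induced by interferon, Cxcl13 attracts B cells, and Cxcl16 is a membrane-bound chemokine.

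Among the CC chemokines, Ccl25 (chr8:4325205-4360020), known from thymus and gut, was the most raised in culture. Its arrays gave 7.06 to 7.87 (median 7.35) in hippocampal culture, 6.25 to 6.71 (median 6.42) in primary hippocampus, 6.88 to 7.61 (median 7.25) in cortical culture and 6.14 to 6.56 (median 6.27) in primary cortex, with no overlap of culture and tissue in either region. The differences were 0.99 ± 0.08 (SE, adjusted p = 3.87e-14) and 0.96 ± 0.08 (SE, adjusted p = 3.01e-13), and 0.32 and 0.35 by its second probe set. KO and WT means (± SD) of Ccl25 were 7.44 ± 0.22 against 7.38 ± 0.32 in hippocampal culture, 7.32 ± 0.08 against 7.19 ± 0.27 in cortical culture, 6.46 ± 0.17 against 6.39 ± 0.08 in primary hippocampus and 6.35 ± 0.14 against 6.23 ± 0.06 in primary cortex. Ccl27a (chr4:41769467-41774225), a chemokine of skin, moved the other way and in the hippocampus alone. Hippocampal culture gave 7.47 to 8.35 (median 8.07), below every array of primary hippocampus (8.81 to 9.13, median 8.99), a difference of -0.93 ± 0.10 (SE, adjusted p = 2.05e-10). Cortical culture (8.33 to 9.50, median 8.92) overlapped primary cortex (8.60 to 9.18, median 8.99), and the difference was 0.00 ± 0.11 (SE, adjusted p = 0.974), of either sign across the alternatives. In KO against WT, Ccl27a had means (± SD) of 8.13 ± 0.13 against 7.99 ± 0.31 in hippocampal culture, 8.99 ± 0.32 against 8.98 ± 0.47 in cortical culture, 9.03 ± 0.08 against 8.95 ± 0.14 in primary hippocampus and 8.92 ± 0.20 against 9.04 ± 0.08 in primary cortex. Its probe set may also bind related copies of the Ccl27 family, which was not tested, and the gene overlaps Il11ra1 at its end by RefSeq positions.

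Of the other CC chemokines, Ccl2, Ccl4 and Ccl17 were higher in both cultures. Ccl2 differed by 0.26 in the hippocampus and 0.56 in the cortex, where no culture array overlapped a tissue array. Ccl17, a ligand of Ccr4, differed by 0.54 and 0.34 from tissue means of 4.45 and 4.56 that were under the olfactory level, and Ccl4, an inflammatory chemokine of macrophages, by 0.31 and 0.25, with primary hippocampus under it. Calls in 1 region were made for Ccl5 (0.35), Ccl9 (-0.33) and Ccl24 (-0.12) in the hippocampus and for Ccl28 (-0.47) in the cortex. The tissue mean of Ccl5 and the culture mean of Ccl9 were under the level there.

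**Figure D3:**
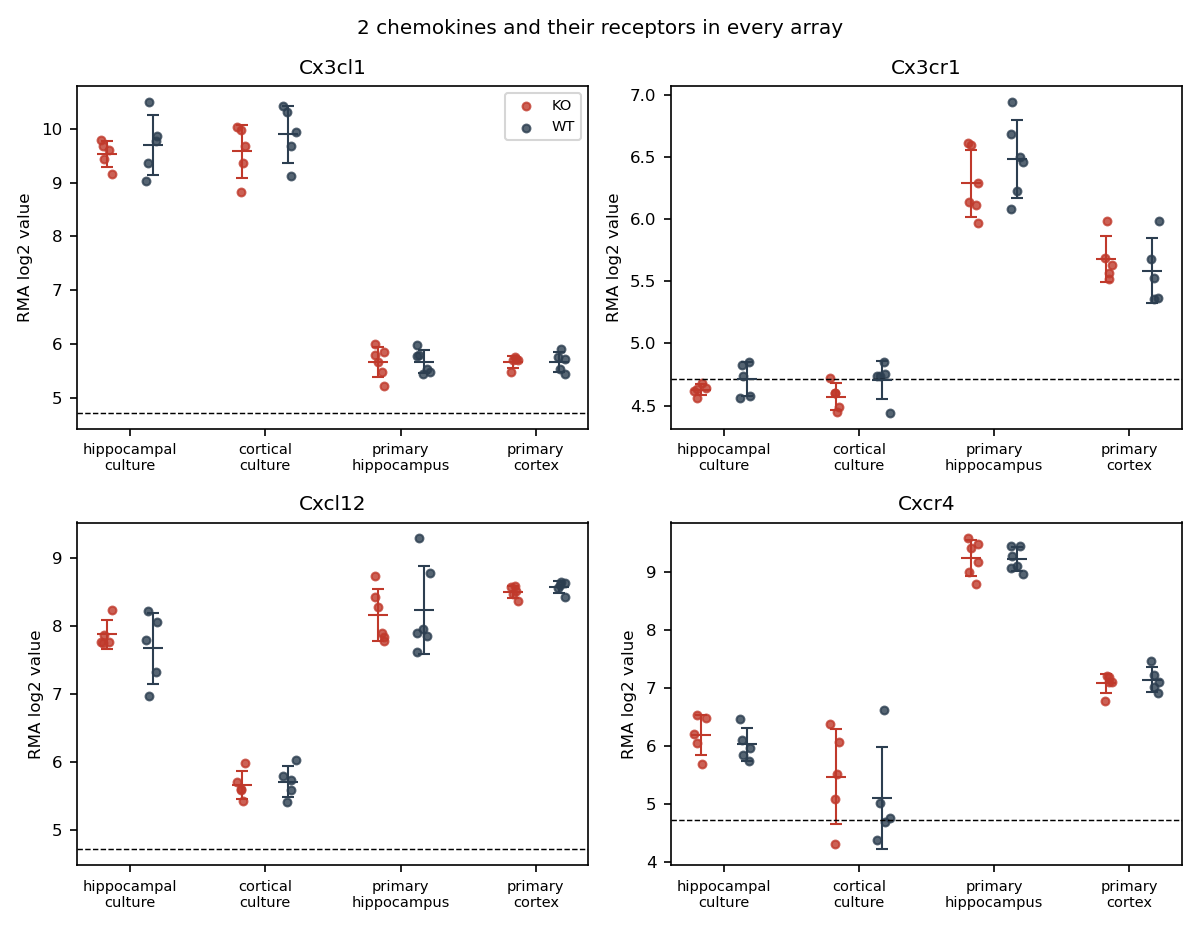
Log2 expression of Cx3cl1, Cx3cr1, Cxcl12 and Cxcr4 in each array, by kind of sample and genotype, with the group mean and SD as bars and the olfactory receptor level of 4.71 dashed. Cx3cl1 is high in both cultures while Cx3cr1 falls to the dashed line there, and Cxcl12 is lowest in cortical culture.

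The receptors Cxcr4 and Cx3cr1 were both lower in culture. Cxcr4 (chr1:128588199-128592299) ran from 5.68 to 6.53 (median 6.08) in hippocampal culture against 8.79 to 9.59 (median 9.22) in primary hippocampus, and from 4.30 to 6.62 (median 5.06) in cortical culture against 6.78 to 7.47 (median 7.11) in primary cortex, with no overlap in either region. Culture minus tissue was -3.13 ± 0.19 (SE, adjusted p = 2.03e-17) and -1.83 ± 0.20 (SE, adjusted p = 2.62e-10). KO and WT means (± SD) were 6.19 ± 0.35 against 6.02 ± 0.28 in hippocampal culture, 5.47 ± 0.82 against 5.10 ± 0.88 in cortical culture, 9.24 ± 0.31 against 9.22 ± 0.20 in primary hippocampus and 7.08 ± 0.17 against 7.14 ± 0.22 in primary cortex. The highest cortical culture array, WT 2236 at 6.62, stood apart from the rest of its group, and without it the cortical difference was -2.02. The gene has a single probe set.

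Markers of Cajal-Retzius cells, early neurons that use Cxcr4, moved with it. Of 7 measured, 6 were lower in hippocampal culture (1 higher) and 5 in cortical culture, against 36.2% and 35.9% of all genes. In primary hippocampus 6 were higher than in primary cortex, against 19.7% of all genes. Their mean level per array was 8.01 to 8.52 in primary hippocampus, 6.60 to 7.09 in primary cortex, 6.15 to 6.80 in hippocampal culture and 5.78 to 6.08 in cortical culture. Lhx1, a transcription factor of these cells, was at 7.57 in primary hippocampus and under the olfactory level in the cultures (3.92 and 3.67), while Reln, their secreted guidance protein, was at 10.69 to 12.25 in all 4 kinds of sample. All 6 markers of intermediate progenitors and dividing cells were lower in both cultures as well, against 37.4% of all genes above the olfactory level. The list means of these markers were 9.13 to 10.38 in tissue and 5.95 to 7.58 in culture. Their part in the Cxcr4 difference was not tested.

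Cx3cr1 (chr9:120048683-120068296) ran from 5.97 to 6.95 (median 6.38) in primary hippocampus and from 5.36 to 5.99 (median 5.60) in primary cortex. The cultures gave 4.56 to 4.85 (median 4.64) and 4.44 to 4.85 (median 4.66), close to the olfactory level and below every tissue array. The fitted differences were -1.72 ± 0.09 (SE, adjusted p = 5.05e-20) and -0.996 ± 0.09 (SE, adjusted p = 2.1e-12). Counted against the olfactory level, Cx3cr1 was at least 3.19-fold lower in hippocampal culture and at least 1.89-fold lower in cortical culture. In KO and WT the means (± SD) of Cx3cr1 were 4.63 ± 0.04 against 4.71 ± 0.14 in hippocampal culture, 4.57 ± 0.11 against 4.71 ± 0.15 in cortical culture, 6.29 ± 0.27 against 6.49 ± 0.31 in primary hippocampus and 5.68 ± 0.19 against 5.59 ± 0.26 in primary cortex. Of 17 measured microglial markers, 14 were lower in each culture, while 1 was higher in hippocampal and 2 in cortical culture. Of all genes 36.2% were lower and 35.9% higher in hippocampal culture, and 35.9% and 35.3% in cortical culture. Above the olfactory level were 13 in primary hippocampus, 12 in primary cortex and 7 in each culture. The array means of that list were 5.54 to 6.11 in primary hippocampus, 5.27 to 5.42 in primary cortex and 4.42 to 4.72 in the cultures. C1qa and P2ry12, both in that list, were at 7.29 and 6.11 in primary hippocampus and under the olfactory level in culture (at most 4.25 and 3.91). Their part in the Cx3cr1 difference was not tested.

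Ccr2, the only CC chemokine receptor above the level with a call, was higher in cortical culture by 0.13 ± 0.04 (SE, adjusted p = 0.00749). Markers of lymphocytes (7 measured) and of granulocytes and monocytes (6 measured) had array means of 4.05 to 4.29 and 4.28 to 4.77 over all arrays, at or near the olfactory level. Of the 12 endothelial markers 9 were lower in each culture, against 36.2% of all genes in hippocampal and 35.9% in cortical culture.

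Of the 10 interleukins above the olfactory level 6 were called in at least 1 region, and of the 15 receptor chains 12 were, against the 92.1% of all genes above the level given before. Il17d (chr14:57524829-57543166), an unusual member of the interleukin 17 family that is expressed in brain, gave 4.37 to 5.41 (median 4.88) in hippocampal culture against 5.06 to 6.46 (median 5.70) in primary hippocampus. In cortical culture it gave 4.18 to 5.04 (median 4.64), below every array of primary cortex (5.83 to 6.52, median 6.14). The differences were -0.84 ± 0.12 (SE, adjusted p = 1.27e-07) and -1.53 ± 0.13 (SE, adjusted p = 1.48e-13), and the cortical culture mean was under the olfactory level, so that Il17d was at least 2.69-fold lower there. KO and WT means (± SD) of Il17d were 4.95 ± 0.34 against 4.75 ± 0.31 in hippocampal culture, 4.72 ± 0.24 against 4.51 ± 0.23 in cortical culture, 5.55 ± 0.34 against 5.82 ± 0.37 in primary hippocampus and 6.12 ± 0.24 against 6.17 ± 0.22 in primary cortex. Il16 (chr7:83642819-83746028), whose precursor has a neuronal form, was higher in hippocampal culture at 6.28 to 6.95 (median 6.49) against 5.34 to 5.99 (median 5.67), a difference of 0.85 ± 0.08 (SE, adjusted p = 1.96e-12) with no overlap. In cortical culture (4.67 to 5.33, median 5.16) and primary cortex (4.83 to 5.37, median 5.16) Il16 differed by -0.01 ± 0.08 (SE). KO against WT gave Il16 means (± SD) of 6.48 ± 0.17 against 6.58 ± 0.25 in hippocampal culture, 5.01 ± 0.20 against 5.23 ± 0.07 in cortical culture, 5.68 ± 0.22 against 5.69 ± 0.18 in primary hippocampus and 5.15 ± 0.20 against 5.11 ± 0.10 in primary cortex. Il18, an inflammasome product, was called in the cortex only (0.80), Il34 (from a tissue mean under the level) and Il1f10 in the hippocampus only (0.27 and 0.15), and Il1b, also cut by the inflammasome, in both at 0.15 and 0.16. Il18bp was higher in both, by 0.17 and 0.20. Il1b overlaps its antisense gene Il1bos, and Il18 overlaps Bco2 and Tex12.

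The chains of the interleukin 6 receptor rose together in culture. Il6st (chr13:112464070-112506860), the signalling chain, gave 8.25 to 9.90 (median 9.04) in hippocampal culture against 7.52 to 8.01 (median 7.72) in primary hippocampus, and 8.37 to 9.55 (median 8.88) in cortical culture against 6.89 to 7.40 (median 7.11) in primary cortex. Neither region showed overlap, and Il6st differed by 1.34 ± 0.13 (SE, adjusted p = 5.23e-12) and 1.79 ± 0.13 (SE, adjusted p = 6.5e-15). Its 3 other probe sets read 0.21 to 1.02 higher in the hippocampus and 0.37 to 1.17 in the cortex. KO and WT means (± SD) of Il6st were 8.91 ± 0.38 against 9.23 ± 0.43 in hippocampal culture, 9.04 ± 0.45 against 8.79 ± 0.42 in cortical culture, 7.71 ± 0.13 against 7.75 ± 0.18 in primary hippocampus and 7.17 ± 0.06 against 7.09 ± 0.19 in primary cortex. Il6ra (chr3:89869324-89913196), which binds the ligand, gave 5.98 to 7.09 (median 6.54) against 4.69 to 5.21 (median 4.96) in the hippocampus, where no arrays overlapped, and 5.14 to 5.97 (median 5.68) against 4.76 to 5.16 (median 4.98) in the cortex, where they did. The Il6ra differences were 1.53 ± 0.09 (SE, adjusted p = 2.01e-17) and 0.65 ± 0.10 (SE, adjusted p = 3.07e-07). For Il6ra the KO and WT means (± SD) were 6.36 ± 0.21 against 6.61 ± 0.42 in hippocampal culture, 5.62 ± 0.22 against 5.64 ± 0.31 in cortical culture, 4.94 ± 0.19 against 4.97 ± 0.04 in primary hippocampus and 4.96 ± 0.13 against 4.99 ± 0.12 in primary cortex. The ligand Il6 was under the olfactory level throughout.

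Il1r1 (chr1:40222480-40316201), the signalling receptor of interleukin 1, gave 6.10 to 8.20 (median 6.64) in hippocampal and 6.22 to 7.27 (median 6.55) in cortical culture, above every tissue array (5.62 to 5.91, median 5.80, in hippocampus and 5.40 to 5.82, median 5.65, in cortex). Its differences were 0.92 ± 0.14 (SE, adjusted p = 3.82e-07) and 0.99 ± 0.15 (SE, adjusted p = 1.9e-07). Il1r1 means (± SD) in KO and WT were 6.54 ± 0.25 against 6.89 ± 0.80 in hippocampal culture, 6.77 ± 0.41 against 6.47 ± 0.27 in cortical culture, 5.84 ± 0.05 against 5.75 ± 0.11 in primary hippocampus and 5.62 ± 0.14 against 5.63 ± 0.17 in primary cortex. Il17rc (chr6:113471455-113483163), a chain of the interleukin 17 receptor, gave 6.04 to 7.82 (median 6.60) against 5.64 to 5.93 (median 5.73) in the hippocampus and 6.18 to 6.96 (median 6.46) against 5.66 to 6.08 (median 5.82) in the cortex, again without overlap. Il17rc differed by 0.87 ± 0.12 (SE, adjusted p = 3.94e-08) and 0.69 ± 0.12 (SE, adjusted p = 7.35e-06). In KO and WT its means (± SD) were 6.49 ± 0.26 against 6.73 ± 0.68 in hippocampal culture, 6.60 ± 0.30 against 6.44 ± 0.24 in cortical culture, 5.75 ± 0.10 against 5.73 ± 0.07 in primary hippocampus and 5.91 ± 0.11 against 5.75 ± 0.09 in primary cortex. Hippocampal culture WT 2644 was the highest array of its kind for Il1r1 (8.20), Il17rc (7.82) and Il6st (9.90), and it had the lowest neuronal list mean (10.07) and the highest pericyte and smooth muscle list mean (6.92, against 5.77 for the lowest array). Without that array the 3 differences were 0.75, 0.73 and 1.26, and each kept its call. Of 10 astrocyte markers 6 were higher and 2 lower in hippocampal culture, and 9 were higher and 0 lower in cortical culture. Of all genes 35.9% and 35.3% were higher in these cultures. The list means of the astrocyte markers were 8.39 to 8.97 in culture and 6.58 to 7.96 in tissue. Their part in these differences was not tested.

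The remaining receptor chains had smaller differences. Il15ra (0.57 and 0.55), which presents interleukin 15, Il17re (0.25 and 0.29) and Il2rb (0.31 and 0.21; its mean in primary hippocampus was under the level) were higher in hippocampal and cortical culture. Il10rb (-0.59 and -0.41), shared by the interleukin 10 family, and Il17rb (-0.16 and -0.33) were lower in both. Il17rd, a membrane protein that also restrains fibroblast growth factor signalling, was called in the hippocampus only (-0.74 ± 0.14, SE). Il1rapl1, a synaptic adhesion protein related to the interleukin 1 receptor, was called in the cortex only (0.56 ± 0.11, SE).

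The probe sets of Il1rap (chr16:26581509-26730128), the accessory chain of the interleukin 1 receptor, disagreed. The brightest was 0.12 higher in hippocampal culture, which was not called, and 0.70 higher in cortical culture. The other 2 were 2.51 and 2.71 higher in the hippocampus and 1.05 and 0.85 higher in the cortex. Between the cultures the brightest differed by -0.83 (hippocampal minus cortical) and the others by 0.55 and 0.62, so the direction there depends on the probe set.

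The second comparison set hippocampus against cortex, in tissue and in culture. Cxcr4 and Il17rd were the members with at least a 2-fold difference between the tissues, both higher in primary hippocampus, 2 of the 50 above the level against 5.23% of all genes above it. Cxcl12 and Il16 were those between the cultures, both higher in hippocampal culture, against 3.33%. In tissue 10 of 121 members were higher in hippocampus (8.26%) and 10 lower (8.26%), against 19.7% and 16.7% of all genes, and centred arrays gave 7 and 13. Of the 50 above the olfactory level 7 were higher (14%) and 4 lower (8%), against 24.7% and 19.9% of genes above it. In culture 6 of 121 were higher (4.96%) and 9 lower (7.44%), against 14.7% and 13.5% (8 higher and 6 lower with centred arrays), and of the 50 there were 5 higher (10%) and 8 lower (16%), against 18.6% and 16.5%.

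**Figure D4:**
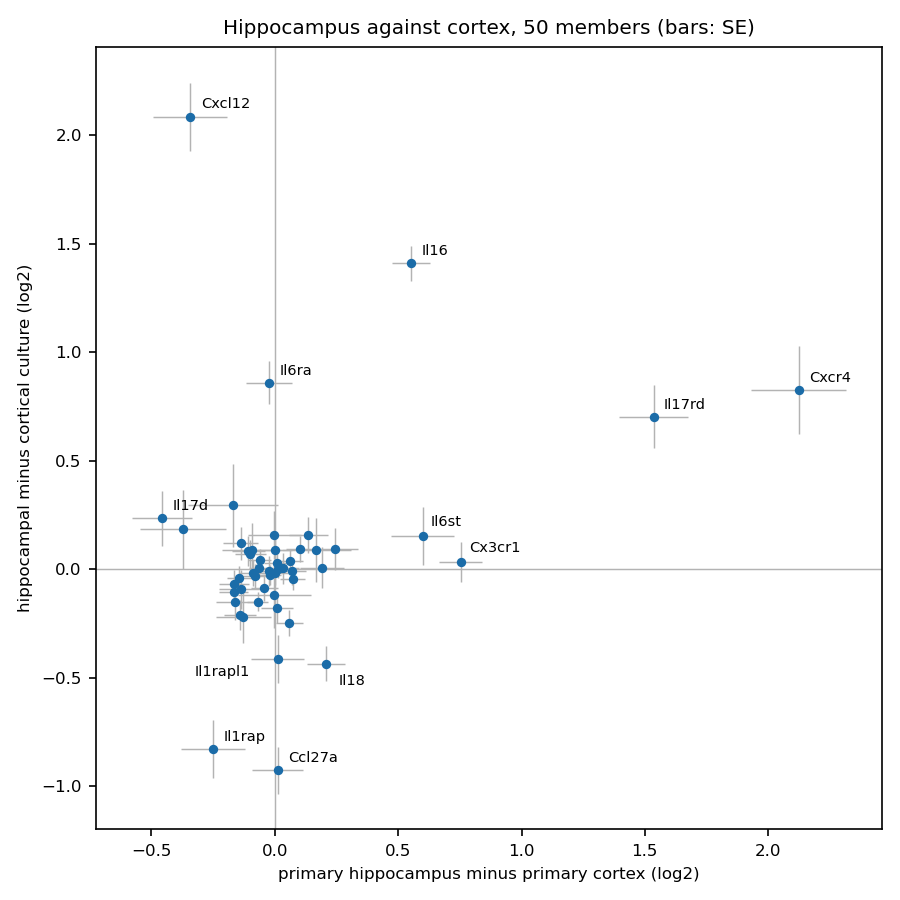
Difference in log2 expression between hippocampus and cortex for the 50 members above the olfactory receptor level, in tissue on the x axis and in culture on the y axis, with standard errors from limma. Cxcr4 lies far to the right (2.12 in tissue, 0.83 in culture) and Cxcl12 far up (-0.34 in tissue, 2.09 in culture).

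Cxcr4 was 4.36-fold higher in primary hippocampus than in primary cortex, a log2 difference of 2.12 ± 0.19 (SE, adjusted p = 1.65e-11), and no arrays of the tissues overlapped. In culture it was 0.83 ± 0.20 (SE, adjusted p = 0.00184), with overlap. Cxcl12 did not pass in tissue, -0.34 ± 0.15 (SE, adjusted p = 0.0808), and was 4.25-fold higher in hippocampal than in cortical culture, 2.09 ± 0.16 (SE, adjusted p = 2.24e-13), where every hippocampal array was above every cortical one. The second Cxcl12 probe set gave 0.16 between the cultures, so this difference rests on 1 probe set. Beside it, 2 of 12 markers of meninges and fibroblasts were higher in hippocampal culture (list means 5.50 to 6.06 against 5.19 to 5.89) and 3 of 7 of choroid plexus were (5.37 to 6.53 against 4.61 to 5.20), while 6 of 7 of the oligodendrocyte lineage were lower (6.23 to 6.63 against 7.32 to 8.37). Of all genes 14.7% were higher and 13.5% lower in hippocampal culture. The part of these cell types was not tested.

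Il17rd (chr14:27038964-27107286) gave 7.13 to 8.33 (median 7.68) in primary hippocampus and 5.91 to 6.53 (median 6.21) in primary cortex, with no overlap, and 6.14 to 7.70 (median 7.10) and 6.02 to 6.65 (median 6.31) in hippocampal and cortical culture. Hippocampus minus cortex was 1.54 ± 0.14 (SE, adjusted p = 1.35e-11) in tissue and 0.70 ± 0.14 (SE, adjusted p = 0.000269) in culture. KO and WT means (± SD) of Il17rd were 7.26 ± 0.29 against 6.80 ± 0.50 in hippocampal culture, 6.42 ± 0.20 against 6.23 ± 0.19 in cortical culture, 7.83 ± 0.34 against 7.70 ± 0.51 in primary hippocampus and 6.25 ± 0.23 against 6.21 ± 0.19 in primary cortex. Il16 was higher in hippocampus in tissue, 0.55 ± 0.08 (SE, adjusted p = 3.67e-07), and in culture, 1.41 ± 0.08 (SE, adjusted p = 1.53e-16), where the arrays did not overlap. Of its other probe sets, the second gave 0.67 in tissue and 2.21 in culture. These 2 and Cxcr4 were the 3 members called the same way in tissue and culture.

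Further members were called between the tissues. Higher in primary hippocampus were Cx3cr1 (0.75 ± 0.09, SE, adjusted p = 5.58e-09), Il6st (0.60 ± 0.13, SE, adjusted p = 0.000275, with no overlap of arrays), Ccl9 (0.24) and Il18 (0.21). Lower were Il17d (-0.46), Ccl4 (-0.17), Cxcl13 (-0.17) and Il2rb (-0.14), the last 3 from means in primary hippocampus under the olfactory level. Beside Cx3cr1 and Ccl9, 12 of 17 microglial markers were also higher in primary hippocampus, against 19.7% of all genes. So were 11 of 12 markers of meninges and fibroblasts, with list means of 5.45 to 6.46 in hippocampus and 4.59 to 5.09 in cortex. Their part was not tested.

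Between the cultures, Il6ra was higher in the hippocampal arrays (0.86 ± 0.10, SE, adjusted p = 9.87e-09) without overlap. Lower there were Ccl27a (-0.93 ± 0.11, SE, adjusted p = 1.01e-08), Il1rap (-0.83), Il18 (-0.44), Il1rapl1 (-0.41), Ccl2 (-0.25), Cxcl1 (-0.21), Cxcl16 (-0.18) and Ccr2 (-0.15). Il18 thus was called in opposite directions in tissue and culture, the only member of the 50 to be so. The regional difference itself differed between culture and tissue for 12 of the 50 (24%; 4 more positive and 8 more negative in culture) at an adjusted p under 0.05, against 40.3% of genes above the level. The more positive were Cxcl12 (2.43), Il6ra (0.88), Il16 (0.86) and Il17d (0.69). The more negative were Cxcr4 (-1.30), Ccl27a (-0.94), Il17rd (-0.83), Cx3cr1 (-0.72), Il18 (-0.64), Il1rap (-0.58), Il1rapl1 (-0.43) and Ccl2 (-0.31). The Il1rap values here are those of its brightest probe set. Its other probe sets rose more in hippocampal than in cortical culture, so the direction for Il1rap depends on the probe set. The value of Cxcl12 rests on 1 probe set, and its second fell by similar amounts in both cultures. Cx3cr1 was under the olfactory level in both cultures and Il17d in cortical culture, so their values here leave out any regional difference below it.

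The third comparison, KO against WT, was made in each kind of sample at the unadjusted p of 0.05 that the study used. Ccl4 was lower in KO in both cultures, Cxcl16 was lower in KO cortical culture, and Il3ra and Ccr2 were higher in KO primary cortex, all by under 0.3 on the log2 scale. Few members were called, and no member passed after adjustment over all probe sets. In hippocampal culture 4 of 121 were called (1 higher, 3 lower; 3.31%), against 9.54% of all genes (6 higher and 0 lower with centred arrays, 2 and 1 after quantile normalization), and 3 of the 50 above the olfactory level (6%), against 11.5% of genes above it (2 higher and 0 lower of the 50 with centred arrays). In cortical culture 9 were (1 higher, 8 lower; 7.44%), against 10.2%, and 6 of 50 (12%), against 11%. In primary hippocampus 3 were, all lower (2.48%; 1 higher and 2 lower after quantile normalization), against 1.54%, and in primary cortex 5 (4 higher, 1 lower; 4.13%), against 1.66%. Of the 50 above the level 3 were called in primary hippocampus (6%), against 0.894%, and 2 in primary cortex (4%), against 1.03%. The differences of the 50 ran from -0.38 (Il1rap) to 0.46 (Il17rd) in hippocampal culture, from -0.32 (Cx3cl1) to 0.37 (Cxcr4) in cortical culture, from -0.28 (Ccl9) to 0.13 (Il17rd) in primary hippocampus and from -0.14 (Cxcl10) to 0.24 (Il3ra) in primary cortex. The smallest adjusted p of the 50 was 0.499, 0.309, 1 and 1 in that order. An exact permutation test of 5 against 5 arrays cannot go below p = 0.00794, and of 6 against 6 below p = 0.00216. Its p is printed for members picked by their call in the same arrays, so a small value is no separate support. The share of all genes with KO and WT arrays fully apart is not given here, so such a separation carries no weight either.

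In hippocampal culture Ccl4 (chr11:83648624-83664683), an inflammatory chemokine of macrophages, had log2 values of 4.87, 4.70, 4.90, 4.89 and 4.87 in KO and 4.96, 4.92, 5.19, 5.15 and 4.99 in WT. Every KO array was below every WT array, and the difference was -0.20 ± 0.09 (SE; adjusted p = 0.499, limma; p = 0.00794, exact permutation test, two-sided). In cortical culture it had 5.03, 4.87, 5.07, 4.65 and 5.0 in KO and 5.05, 5.27, 4.93, 5.42 and 5.19 in WT, with overlap, a difference of -0.25 ± 0.09 (SE; adjusted p = 0.368, limma; p = 0.0635, exact permutation test, two-sided). In the tissues the Ccl4 means (± SD) were 4.65 ± 0.12 against 4.61 ± 0.15 in primary hippocampus and 4.75 ± 0.14 against 4.85 ± 0.05 in primary cortex. All these values lie within 0.8 of the olfactory level, and the gene overlaps Ccl3. The hippocampal call was lost without any 1 of KO 2038, WT 2644 and WT 3569 (-0.17 to -0.16), and the cortical call in no such fit. Il17rd had 7.40, 7.70, 7.01, 7.04 and 7.15 in KO and 7.15, 7.38, 6.48, 6.14 and 6.83 in WT, the only member above the level that was called higher in KO there, and differed by 0.46 ± 0.20 (SE; adjusted p = 0.505, limma; p = 0.127, exact permutation test, two-sided). The ranges overlapped, and the call was lost without any 1 of KO 2037, KO 2038, WT 2644 and WT 3569 (0.30 to 0.43). Il18bp, the blocker of interleukin 18, had 5.62, 5.51, 5.81, 5.71 and 5.75 in KO and 5.74, 6.00, 5.66, 6.04 and 5.79 in WT, also overlapping, a difference of -0.16 ± 0.08 (SE; adjusted p = 0.538, limma; p = 0.127, exact permutation test, two-sided). That call was lost without any 1 of KO 2037, KO 2038, WT 2643 and WT 3569 (-0.15 to -0.12), and under 4 of 8 other settings. Its means (± SD) elsewhere were 5.65 ± 0.10 against 5.79 ± 0.16 in cortical culture, 5.65 ± 0.10 against 5.53 ± 0.07 in primary hippocampus and 5.60 ± 0.10 against 5.45 ± 0.13 in primary cortex. Beside these, 3 of 10 neuronal markers were called higher in KO in hippocampal culture, where 9.54% of all genes were called in either direction. The list means were 10.66 to 10.93 in KO and 10.07 to 10.70 in WT, and the part of these markers was not tested.

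In cortical culture Cxcl16, a membrane-bound chemokine and scavenger receptor, had 6.59, 6.42, 6.62, 6.58 and 6.71 in KO and 6.71, 7.32, 6.71, 6.80 and 6.77 in WT. The groups met at 6.71, the highest WT array was WT 2643, and the difference was -0.28 ± 0.09 (SE; adjusted p = 0.358, limma; p = 0.0159, exact permutation test, two-sided). The call was lost without WT 2643 (-0.16). Cxcl16 means (± SD) elsewhere were 6.50 ± 0.19 against 6.58 ± 0.11 in hippocampal culture, 6.28 ± 0.12 against 6.23 ± 0.13 in primary hippocampus and 6.21 ± 0.10 against 6.29 ± 0.13 in primary cortex. Cxcl10, an interferon-induced ligand of Cxcr3, had 5.14, 5.44, 4.80, 5.07 and 4.70 in KO and 5.57, 4.85, 4.32, 4.58 and 4.02 in WT, where WT held both the highest and the lowest array and had a mean of 4.67, under the olfactory level, and differed by 0.36 ± 0.16 (SE; adjusted p = 0.485, limma; p = 0.262, exact permutation test, two-sided). Its call was lost without any 1 of KO 2037, KO 2038, KO 2620, WT 2644, WT 3569 and WT NT (0.20 to 0.35). In the other kinds of sample its means (± SD) were 4.63 ± 0.17 against 4.63 ± 0.24, 4.11 ± 0.12 against 4.18 ± 0.15 and 4.20 ± 0.10 against 4.34 ± 0.20 in hippocampal culture, primary hippocampus and primary cortex, under the olfactory level.

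Il17re, Il2rb and Ccl17 were called lower in KO cortical culture as well. Il17re had 6.71, 6.47, 6.79, 6.70 and 6.87 in KO and 6.71, 7.05, 6.84, 7.07 and 6.90 in WT, a difference of -0.21 ± 0.08 (SE; adjusted p = 0.422, limma; p = 0.0714, exact permutation test, two-sided). Il2rb, a chain of the interleukin 2 receptor, had 4.87, 4.79, 5.01, 4.85 and 5.01 in KO and 4.99, 5.14, 4.95, 5.26 and 4.95 in WT, a difference of -0.15 ± 0.07 (SE; adjusted p = 0.506, limma; p = 0.0873, exact permutation test, two-sided). Ccl17 had 4.72, 4.86, 4.59, 4.95 and 4.90 in KO and 5.05, 5.22, 4.57, 5.0 and 5.20 in WT, a difference of -0.20 ± 0.10 (SE; adjusted p = 0.51, limma; p = 0.175, exact permutation test, two-sided). The groups overlapped for each of them. The call of Il17re was lost without any 1 of KO 2038 and WT 3569 (-0.17 to -0.15), that of Il2rb without any 1 of KO 2037, KO 2038, KO 2620, WT 2643 and WT 3569 (-0.14 to -0.10), and under 6 of 8 other settings, and that of Ccl17 without any 1 of KO 2037, KO 2221, WT 2236, WT 2643, WT 3569 and WT NT (-0.20 to -0.15), and under 5 of 8 other settings. In hippocampal culture, primary hippocampus and primary cortex the KO and WT means (± SD) of Il17re were 6.69 ± 0.10 against 6.75 ± 0.12, 6.47 ± 0.06 against 6.49 ± 0.13 and 6.51 ± 0.15 against 6.52 ± 0.12. Those of Il2rb were 4.92 ± 0.11 against 4.97 ± 0.09, 4.56 ± 0.13 against 4.70 ± 0.11 and 4.79 ± 0.10 against 4.76 ± 0.11, with a call in primary hippocampus at a mean under the olfactory level (-0.14 ± 0.07, SE; adjusted p = 1, limma; p = 0.0909, exact permutation test, two-sided). Those of Ccl17 were 4.99 ± 0.17 against 4.99 ± 0.14, 4.48 ± 0.10 against 4.42 ± 0.11 and 4.54 ± 0.17 against 4.58 ± 0.10. In cortical culture 2 of 17 microglial markers and 2 of 7 lymphocyte markers were called lower in KO, where 10.2% of all genes were called in either direction. The list means were 4.42 to 4.57 against 4.54 to 4.72 and 4.08 to 4.19 against 4.14 to 4.29, near or under the olfactory level. The part of these markers was not tested.

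**Figure D5:**
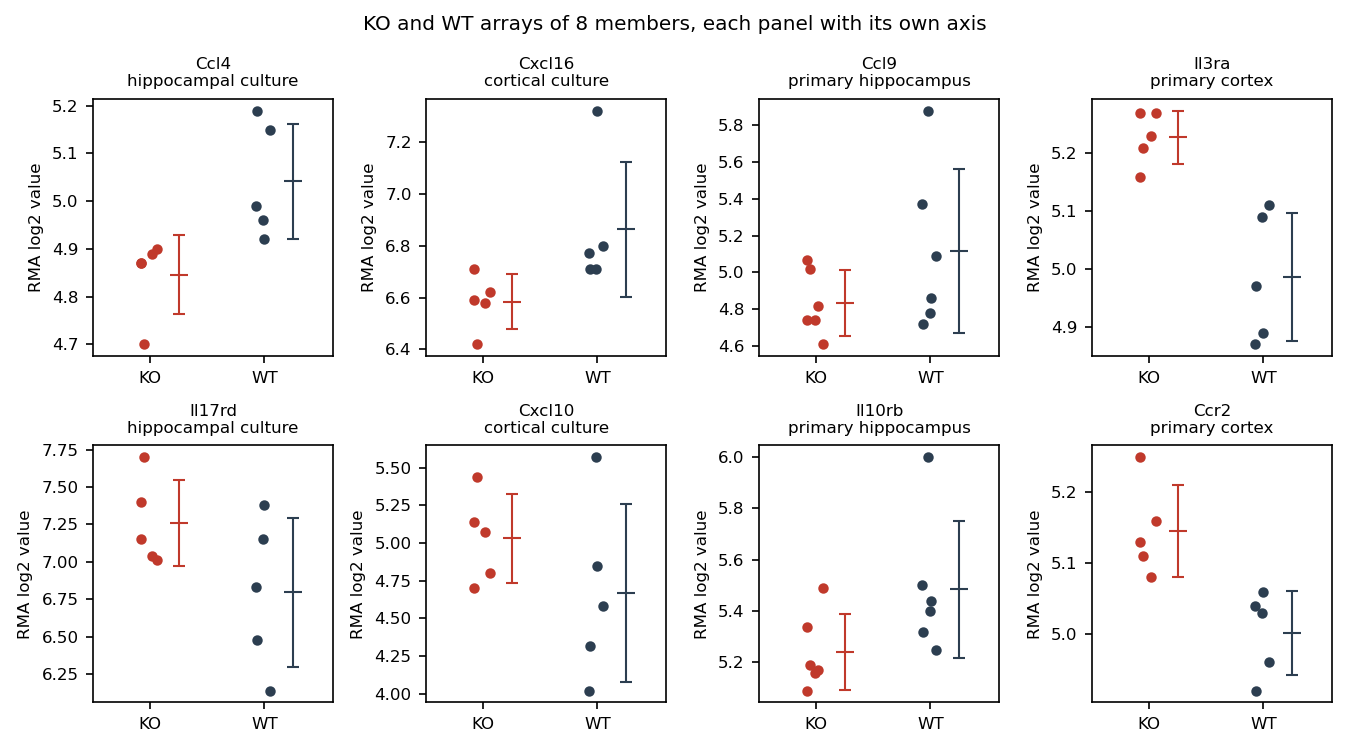
Log2 expression per array in KO and WT for 8 member and system pairs, with the group mean and SD: Ccl4 and Il17rd in hippocampal culture, Cxcl16 and Cxcl10 in cortical culture, Ccl9 and Il10rb in primary hippocampus, and Il3ra and Ccr2 in primary cortex. The KO and WT points are separate for Ccl4, Il3ra and Ccr2 and overlap or touch in the others, and each panel has its own axis.

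In primary hippocampus Ccl9, a ligand of Ccr1, ran from 4.61 to 5.07 (median 4.78) in 6 KO arrays and from 4.72 to 5.88 (median 4.97) in 6 WT arrays, a difference of -0.28 ± 0.13 (SE; adjusted p = 1, limma; p = 0.18, exact permutation test, two-sided). Il10rb ran from 5.09 to 5.49 (median 5.18) in KO and from 5.25 to 6.00 (median 5.42) in WT, a difference of -0.24 ± 0.12 (SE; adjusted p = 1, limma; p = 0.0541, exact permutation test, two-sided). Both groups overlapped, and WT 3569 was the highest array for both (5.88 and 6.00). The call of Ccl9 was lost without any 1 of KO 2037, KO 2221, KO 4237, WT 3104 and WT 3569 (-0.26 to -0.13) and that of Il10rb without any 1 of KO 2038, KO 2620, KO 4236, KO 4237, WT 3104, WT 3569 and WT NT (-0.25 to -0.14), and under 3 of 8 other settings, the mouse number as a random block among them. Their KO and WT means (± SD) elsewhere were 4.65 ± 0.13 against 4.65 ± 0.13 in hippocampal culture, 4.57 ± 0.19 against 4.54 ± 0.15 in cortical culture and 4.72 ± 0.12 against 4.74 ± 0.20 in primary cortex for Ccl9. For Il10rb they were 4.70 ± 0.05 against 4.84 ± 0.33, 4.87 ± 0.10 against 4.66 ± 0.27 and 5.19 ± 0.12 against 5.15 ± 0.24 in that order. In the same arrays 5 of 12 markers of meninges and fibroblasts and 3 of 7 of choroid plexus were lower in KO. Of all genes 1.54% were called there in either direction. WT 3569 had list means of 6.46 and 7.11 for these markers, where all WT arrays ran from 5.58 to 6.46 and from 6.51 to 7.80. For choroid plexus another WT array was thus higher than WT 3569. The KO ranges were 5.45 to 5.90 and 6.14 to 6.82. Of 17 microglial markers 2 were also called lower in KO and 0 higher. The part of these lists in the differences was not tested.

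In primary cortex Il3ra, the ligand-binding chain of the interleukin 3 receptor, had 5.16, 5.21, 5.27, 5.23 and 5.27 in KO and 5.09, 4.89, 4.97, 5.11 and 4.87 in WT. All KO arrays were above all WT arrays, and the difference was 0.24 ± 0.09 (SE; adjusted p = 1, limma; p = 0.00794, exact permutation test, two-sided), the smallest permutation p the design allows and the one that any full separation gives. Ccr2 had 5.13, 5.11, 5.16, 5.08 and 5.25 in KO and 5.03, 5.06, 4.92, 4.96 and 5.04 in WT, again with KO above WT in every array, a difference of 0.14 ± 0.06 (SE; adjusted p = 1, limma; p = 0.00794, exact permutation test, two-sided). The Ccr2 call was lost without any 1 of KO 4236, WT 2644 and WT 3569 (0.12 to 0.13), and the Il3ra call in no such fit. In hippocampal culture, cortical culture and primary hippocampus the means (± SD) of Il3ra were 5.21 ± 0.15 against 5.23 ± 0.12, 5.27 ± 0.22 against 5.20 ± 0.12 and 5.22 ± 0.07 against 5.13 ± 0.17, and those of Ccr2 were 5.07 ± 0.09 against 5.05 ± 0.06, 5.23 ± 0.07 against 5.19 ± 0.14 and 5.03 ± 0.12 against 4.97 ± 0.08. Of 6 markers of granulocytes and monocytes 3 were called higher in KO primary cortex, and 1 of 7 lymphocyte markers was. Of all genes 1.66% were called there in either direction. The list means were 4.53 to 4.69 in KO and 4.36 to 4.51 in WT for the first list and 4.14 to 4.27 against 4.07 to 4.15 for the second. All of these lie under the olfactory level, which 2 of the 6 and 2 of the 7 markers exceeded in at least 1 kind of sample. Their part was not tested. Members called while under the olfactory level were Il12rb1 in hippocampal culture, Ccl1, Ccl22 and Cxcl2 in cortical culture, and Ccl11, Il1a and Il7 in primary cortex.

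The arrays of a litter are not independent, so the 4 values of each of the 10 litters were also averaged and 5 KO litters set against 5 WT litters. This called 3 members (2.48%; 1 without litter 2037 and 6 without litter 2221), against 4.54% of all genes, and none after adjustment. Ccl4 was different in KO litters by -0.13 (p = 0.0159) and Il16 by -0.09 (p = 0.0317), both by an exact permutation test, two-sided. Il17rd was higher by 0.22, with p = 0.0556 by the same exact permutation test. Whether the KO difference of a member varied between kinds of sample was tested as an interaction: 0 of 121 passed an adjusted p of 0.05 in limma, as did 0% of all genes, and 16 of 121 members had an unadjusted p under 0.05 in at least 1 of the 4 interactions, against 12.8% of all genes. A KO call in 1 kind of sample is therefore not shown to be absent from another.

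Genes around these families were read from 5 lists, with counts of genes called in culture against tissue at an adjusted p under 0.05. The counts of all 5 lists stand against 35.9% of all genes higher and 36.2% lower in the hippocampus. In the cortex these shares were 35.3% and 35.9%. Values given for genes of the lists are log2 differences, culture minus tissue, in the hippocampus and then in the cortex. Of 12 atypical receptors and partners, 3 were higher and 3 lower in each region, with medians of -0.03 in the hippocampus and 0.02 in the cortex. They included Ackr1, which binds chemokines without signalling (1.44 and 1.89), and Ackr3, a scavenger of Cxcl12 (-0.55 and -1.43). Of 18 cytokines and receptors related to interleukins, 7 were higher and 4 lower in the hippocampus and 12 and 3 in the cortex, with medians of 0.06 and 0.22. Csf1, the growth factor of microglia, was at 2.31 and 3.01, and its receptor Csf1r at -2.50 and -2.65. The thymic stromal lymphopoietin receptor Crlf2 was at 2.07 and 1.51, and Osmr, which pairs with Il6st, at 1.87 and 0.64.

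Of 22 JAK, STAT and SOCS genes, which carry signals from interleukin receptors, 4 were higher and 13 lower in hippocampal culture and 7 and 12 in cortical culture (medians -0.30 and -0.22). Stat3, which acts after Il6st, was at -0.31 in the hippocampus and 1.96 in the cortex, and the feedback inhibitor Socs2 at -1.89 and -1.92. Of 23 genes from the interleukin 1 receptor to NF-kappaB, 8 were higher and 11 lower in the hippocampus and 6 and 10 in the cortex (medians -0.15 and -0.05). Tab3 was at -1.17 and -1.71, Traf6 at -0.71 and -1.06, and the inducible regulator Nfkbiz at 0.93 and 1.18. Of 20 chemokine receptor signalling genes, 9 were higher and 6 lower in the hippocampus and 7 and 5 in the cortex (medians 0.01 and 0.04), with Rgs4, which shortens G protein signals, at 2.73 and 2.49 and Rgs5, a pericyte gene of the same family, at -1.81 and -2.99. In KO against WT at the unadjusted p of 0.05, 9 of the 95 measured genes of the 5 lists were called in hippocampal culture, where 9.54% of all genes were, 14 in cortical culture (10.2%), 2 in primary hippocampus (1.54%) and none in primary cortex (1.66%).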

How the data were processed

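Total RNA (100 ng) from 42 samples was hybridized to Affymetrix mouse 3' expression arrays. Per the labels and the study's methods, the authors normalized the scans with the robust multi-array average (RMA), and the deposited values are log2 intensities per probe set. Whether RMA was run on the whole set of scans at the same time is not given in the sources used here.

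Of 45101 probe sets, 64 controls were left out and 45037 tested. Platform annotation gave 34945 probe sets 1 gene symbol, 932 several and 9160 none, and only the first were named. All 121 members matched RefSeq, the source of positions. Group means of the 8 groups were fitted with limma 3.58.1 in R 4.3.3 (34 residual degrees of freedom), without the mouse number as a block. KO against WT was called by unadjusted p (threshold 0.05, the one the study took), and other contrasts at a Benjamini-Hochberg adjusted p under 0.05 over all probe sets. Fold changes are on the RMA scale, which compresses large ratios. Named KO differences were also tested by exact permutation of the arrays. The steps were tested on simulated data.

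Members, gene lists and cell type markers were chosen with earlier results of these data known. Named were all members above the olfactory receptor level, with group values for the 12 with the largest culture difference, those called between KO and WT and those 2-fold apart between regions, Fmr1, and up to 4 genes per pathway list. Mouse numbers paired tissue arrays: deviations from group means correlated at 0.25 to 0.52 (median 0.36) between primary hippocampus and primary cortex of the same number, read here as 1 pool of littermates, and at -0.12 to 0.58 between the cultures. Between a culture and a tissue of the same number the correlations were only -0.15 to 0.24, with medians of 0.02 to 0.07. KO and WT never shared a number. Alternatives were another level, centred or re-normalized arrays, array weights, a mouse block, other thresholds and leaving out each array. Further ones took the probe set with the smallest p per gene, or only probe sets above the olfactory level. The number of arrays limits precision. Figures were drawn with Matplotlib 3.10.9 in Python 3.11.15.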

Additional observations from a re-analysis of the deposited data

Results flagged for a closer look

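The gap between the most extreme array and the next one, as a share of the range of its group, exceeded the 95% critical value of Dixon in 11 of 171 gene and group pairs, where chance gives about 1 in 20. In hippocampal culture these were Ccl27a in KO 2620 (0.787; 8.35 against 8.11 for the next array), Ccl4 in KO 2038 (0.841; 4.70 against 4.87), Cxcl12 in KO 2221 (0.783; 8.24 against 7.86), and Il17rc (0.79; 6.04 against 6.54) and Il1r1 (0.769; 6.10 against 6.58), both in KO 4236. In cortical culture they were Cxcl16 in WT 2643 (0.85; 7.32 against 6.80) and Cxcr4 in WT 2236 (0.715; 6.62 against 5.02). In tissue they were Il10rb in primary hippocampus WT 3569 (0.668; 6.00 against 5.50), Cx3cl1 (0.778; 5.47 against 5.69) and Cxcr4 (0.78; 6.78 against 7.11) in primary cortex KO 2620, and Cxcl16 in primary cortex WT 2644 (0.711; 6.51 against 6.28).

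The hippocampus minus cortex difference was itself different between culture and tissue, at an adjusted p under 0.05 in limma, for 8 of the members whose group values are given. It was more positive in culture for Cxcl12 (2.43 on the log2 scale), Il6ra (0.882), Il16 (0.859) and Il17d (0.692), and more negative for Cxcr4 (-1.30), Ccl27a (-0.938), Il17rd (-0.833) and Cx3cr1 (-0.721). The Cxcl12 value rests on 1 probe set, since its second fell by similar amounts in both cultures. Cx3cr1 was under the olfactory level in both cultures.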

How the results depend on the processing

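The 28 culture and region differences of named members were refitted without each array in turn, and 579 of 588 fits kept direction and call. The other 9 were Ccl27a in cortical culture against primary cortex, which was not called and ran from -0.0589 to 0.0853, and -0.0871 with arrays centred on their median. Under the other 8 settings 222 of 224 values kept both, Cxcl12 in hippocampal culture losing its call. Among the 8, taking the probe set with the smallest p per gene cannot lose a call. Its 41 of 41 unchanged named results are therefore no support. Other probe sets of Cx3cl1, Cxcl12 and Il1rap gave other sizes or directions, as stated above. The 13 KO differences never changed direction but 11 lost their call in 46 of 134 fits without 1 array, and 9 in 25 of 104 fits under other settings. Leaving out 1 array gave 55 to 59 members called in hippocampal culture against tissue, 53 to 58 in cortical culture, 14 to 21 between tissues and 13 to 18 between cultures. KO calls ran from 1 (without KO 2038 or WT 2644) to 11 (without WT 2236) in hippocampal culture, 5 (without KO 2038) to 18 (without WT 2236; 15 without KO 2221) in cortical culture, 1 (without KO 2221 or WT 3569) to 5 (without KO 2038, KO 4236, WT 2236 or WT 2644) in primary hippocampus, 4 to 9 (without WT 2644) in primary cortex, and 1 to 6 over litter means (5 without WT 2644, WT 3569 or KO 4236). In hippocampal culture 7 were called without KO 2221, KO 2620, KO 4236 or WT 3569. In cortical culture KO called 5 when its own arrays alone were fitted or arrays were quantile normalized again. Array weights gave 8 KO calls in hippocampal culture and 10 in primary cortex, and the probe set with the smallest p gave 8 there. Keeping only probe sets above the olfactory level gave 34, 31 and 11 calls for hippocampal culture, cortical culture and tissue regions, and KO calls of 4 for cultured cortex, 1 for primary hippocampus and 2 for primary cortex. At an adjusted p under 0.05 KO called 0 in each kind of sample and over litters. A 2-fold minimum left 6 and 6 members for the cultures and 2 and 2 for the regions. The level put at the 90th percentile or the highest olfactory probe set gave 53 or 32 members above it. With the mouse number as a random replicate block (correlation 0.0681) the pairing left KO calls of 4 in hippocampal culture, 9 for cultured cortex, 2 for primary hippocampus and 5 for primary cortex, 58 and 59 for the cultures, 21 and 17 for the regions, and of 41 named results 1 lost its call, Il10rb. The cause of these shifts was not tested. Members near the olfactory level have little signal over background, and their differences may be understated.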
